A study of Oryza sativa with 36 samples.

Results

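Of 17905 rice genes that could be tied to a probe set of the array, 54 carried the name of a DNA replication or cell cycle gene, and their transcript levels in seedling leaves are described here through chilling and recovery in 2 rice genotypes. A gene was included when its symbol or one of its synonyms in the platform annotation began with MCM, ORC, CYCA, CYCB, CYCD, CDK, CDC, RPA, PCNA, E2F or KRP, with a leading Os dropped, and each gene was represented by the probe set with the highest mean signal. No E2F gene was found by this rule. The 54 genes comprised 8 MCM and 5 ORC genes, 7 RPA genes and PCNA, 3 A-type, 4 B-type and 9 D-type cyclins, 11 cyclin-dependent kinases, 4 KRP inhibitors and a pair of genes with CDC25 names. No measured value entered the choice, and neither genome sequence nor promoter or protein sequence was used here.

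The samples were leaves of S3-stage seedlings of Li-Jiang-Xin-Tuan-Hei-Gu (LTH), a chilling-tolerant japonica variety, and of IR29, a chilling-sensitive indica cultivar, raised at 29 °C with 12 h of light a day until 8 to 10 days old. Each genotype gave 6 groups of 3 arrays, namely untreated control plants at 29 °C, plants held at 4 °C for 2, 8, 24 and 48 h, and recovery plants returned to 29 °C for 24 h after the 48 h of chilling. Both genotypes shared soil plates, and the plates were the biological replicates. No transgene or mutation was involved. The labels name 1 control group per genotype, so the time of day and the treatment cannot be told apart in any comparison with a control. Values are linear array intensities in arbitrary units, 1 per probe set and array, and levels of different genes cannot be set against each other because probe sets differ in how they bind. A gene was called higher or lower when the limma fit across all 57258 probe sets gave a Benjamini-Hochberg adjusted p below 0.05 and a change of at least 2-fold. Every adjusted p below comes from that fit, and every log2 fold change is the chilled or recovery group over its control, unless another pair is named.

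A dividing plant cell first loads the origin recognition complex (ORC) and the MCM helicase onto its DNA, and then copies the DNA at forks held open by replication protein A (RPA) and the sliding clamp PCNA. D-type cyclins act with CDKA kinases at the start of this programme, A- and B-type cyclins with CDKA and CDKB kinases carry the cell through DNA synthesis and mitosis, and KRP proteins inhibit these kinases. Several further CDK classes (C, D, E, F and G) take part in transcription, splicing or the activation of other kinases rather than in division itself. In a grass leaf, division is confined to the shoot tip and the base of young leaves, so that most of a leaf blade consists of cells that no longer divide.

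The arrays were on 1 scale, with medians between 9.81 and 11.16, but many members had their highest value in the same array. The share of all probe sets highest in each array was not worked out, so the next counts have no background. In LTH at 8 h, 24 h and recovery the array named also had the highest median of its group (11.16, 10.68 and 11.01). In the other groups named it did not. Within a group of 3 arrays, the most members had their highest value in 1 array in IR29 at 2 h (replicate 1, 43 of 54 members), LTH at 8 h (replicate 3, 41), IR29 at 48 h (replicate 3, 39), the IR29 control (replicate 2, 37), LTH at 24 h (replicate 2, 36), LTH at 48 h (replicate 3, 35) and LTH recovery (replicate 2, 32). Genes of the shoot tip were highest in the same arrays only in part. Of the 14 genes of a meristem list, the same array was highest for 8 in IR29 at 2 h, 7 in LTH at 8 h and 7 in IR29 at 48 h. It was highest for 8 in LTH at 24 h, 6 in LTH at 48 h and 8 in LTH recovery. In the IR29 control it was highest for 4, whereas replicate 3 was highest for 8. OSH1, a KNOX homeobox gene of the shoot meristem, read 1.00, 97.4 and 3.74 in LTH at 24 h, and YAB3, a gene of young leaf primordia, read 2.48, 133 and 2.01, so that replicate 2 carried most of the signal. The 5 class I KNOX genes and YAB3 averaged 1.96, 1.49 and 1.84 in log2 units in LTH at 2 h, against 4.15, 3.95 and 3.16 in the LTH control, so that they were low in the same arrays as the members. They averaged 1.67, 5.08 and 1.90 in LTH at 24 h, 3.16, 2.44 and 4.76 in LTH at 8 h, and 1.25, 4.24 and 1.79 in LTH recovery, again highest in the array that was highest for the members. In IR29 they averaged 4.64, 4.57 and 4.75 at 8 h and 1.82, 1.58 and 1.74 in recovery, against 2.58, 3.03 and 2.20 in the control. The summed intensity of all 14 genes of the meristem list ranged from 2090 to 3050 in LTH at 2 h, against 2110 to 2400 in the LTH control. In IR29 recovery it ranged from 958 to 1120, against 1650 to 1770 in the IR29 control. LOG and OSH45 were the brightest of the 14 (mean log2 9.65 and 9.51), beside 3.275 for OSH1, so that this sum mainly follows bright genes. OSH45 and HOS66 of the list were not among the class I KNOX genes. The summed intensity of the 5 KNOX genes and YAB3 alone was 27.6, 23.6 and 23.1 in LTH at 2 h, against 178, 155 and 95.5 in the LTH control. Of the 14, OSH1 and YAB3 were called lower and PLA3 higher in LTH at 2 h, HOS66, OSH71 and PLA3 were higher in IR29 at 8 h, none was called in LTH recovery, and FON1, LOG and PLA3 were lower in IR29 recovery. Their median log2 fold change was -0.51 in LTH at 2 h, 1.07 in IR29 at 8 h, -0.69 in LTH recovery and -0.94 in IR29 recovery. OSH3 was at or near the floor of 1 in some arrays. The leaf genes CAB2R, rbcS and rca, for photosynthetic proteins, were bright overall (mean log2 signals 11.5, 11.8 and 12.2). CAB2R was called lower in LTH at 24 h (-2.06) and 48 h (-2.77), in IR29 at 48 h (-1.39) and in IR29 recovery (-1.52), and the recovery response of CAB2R and rbcS was higher in LTH than in IR29 (differences 1.64 and 1.15). Whether the amount of dividing tissue had a part in the results was not tested. In such bulk leaf samples, fewer cells of a type and less RNA per cell cannot be told apart. Of the 126 calls of members against the controls, 85 held whichever 1 array of the groups compared was left out, and 41 were lost without at least 1 of them. Where the values of a call against a control are given below, its loss is named in the same paragraph. Calls that are only counted are not marked, such as the lost calls of RPA2C in IR29 at 8 h and RPA1B in IR29 at 48 h. Of 7 clock genes, PRR1 and PRR95 were called higher at all 4 chilling times in LTH, where PCL1 was lower at 2 h. In IR29, PCL1 and PRR37 were lower at 2 h, PRR37 and PRR73 were lower and PRR1 higher at 8 h, PRR1 was higher at 24 h, and PRR1 and PRR95 were higher and PRR37 lower at 48 h. In recovery 3 clock genes were lower in LTH and 4 in IR29, and the part of the clock in the results was not tested.

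**Figure D1:**
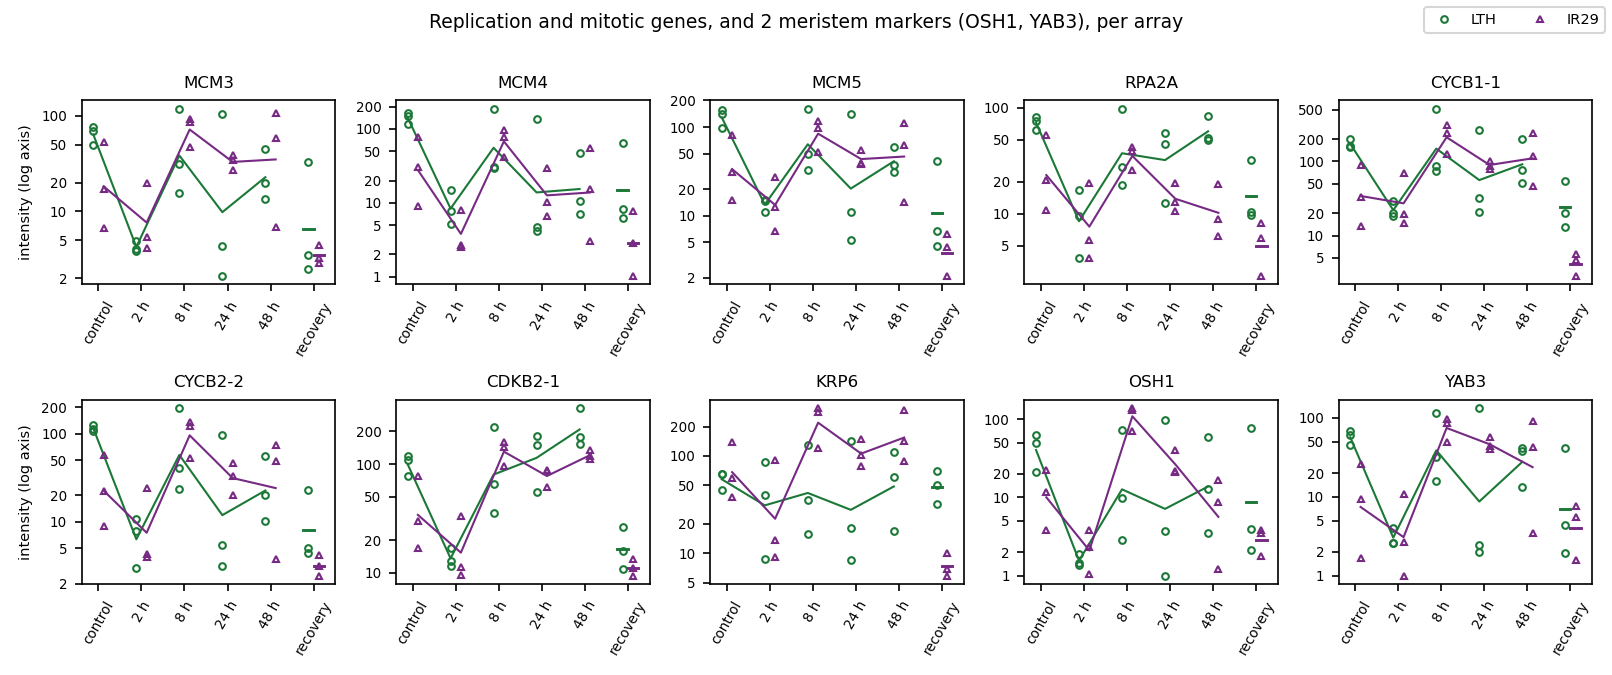
Points are single arrays on a log intensity axis (arbitrary units), lines join the geometric means of the control and the chilling times, and a short bar gives the recovery mean, for 8 members and the meristem genes OSH1 and YAB3 in LTH (circles) and IR29 (triangles). In LTH at 24 h, 1 array lies far above the others for MCM3, MCM4 and MCM5 as it does for YAB3 (2.48, 133 and 2.01), and the 3 arrays of LTH at 2 h lie low together.

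Against the controls, 40 of the 54 genes were called in at least 1 of the 10 comparisons and 14 in none. The share of all probe sets called in at least 1 of the 10 was not worked out, so this count has no background beside it. The largest shift came at 2 h in LTH, where 17 of 54 (31.5%) were called lower, against 6.62% of all probe sets, and 7 were called higher, against 6.99%. The median log2 fold change of the members was -0.95, against -0.02 over all probe sets. At 2 h in IR29, 6 were lower (background 9.49%) and 6 higher (7.05%), with a median of -0.52. At 8 h the counts were 1 lower (6.5%) and 6 higher (7.26%) in LTH, and 1 lower (7.98%) and 10 higher (7.24%) in IR29, where the median stood at 0.79, against -0.11 in LTH. At 24 h, LTH had 9 lower (10.9%) and 7 higher (9.46%) and IR29 had 2 lower (11.4%) and 5 higher (8.54%). At 48 h, LTH had 7 lower (13.1%) and 8 higher (12.3%) and IR29 had 2 lower (13.8%) and 8 higher (10.6%). The median over the members in LTH was -0.62 at 24 h and -0.39 at 48 h. The IR29 medians at these times were 0.39 and 0.40. In recovery, none was higher in LTH (1.35%; 1 at an unadjusted p below 0.05) and 6 were lower (1.22%), whereas IR29 had 2 higher (8.94%) and 16 lower (11.7%). The share called lower thus stood well above the background in LTH at 2 h and in recovery of both genotypes, the share called higher (18.5%) did so in IR29 at 8 h, and the share called lower in LTH at 8 h and in IR29 at 8, 24 and 48 h stood below it. Single arrays weighed on several counts. For counts without an array, here and below, the share of all probe sets is given only for IR29 recovery without IR29 control replicate 2. The other such counts have no background beside them. Without LTH 24 h replicate 2, 20 genes were lower and 9 higher in LTH at 24 h, and without LTH 24 h replicate 3, 4 were lower and 6 higher. Without LTH control replicate 1 or 2, or LTH recovery replicate 1 or 3, 3 genes were lower in LTH recovery, and without LTH recovery replicate 2, 9 were. Without IR29 control replicate 2, 5 genes (9.3%) were lower in IR29 recovery, against 10.6% of all probe sets, so that the share was no longer above the background, and without IR29 recovery replicate 3, 8 were. Without IR29 control replicate 3, 6 were higher in IR29 at 8 h, against 15 without replicate 2 of that group.

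**Figure D2:**
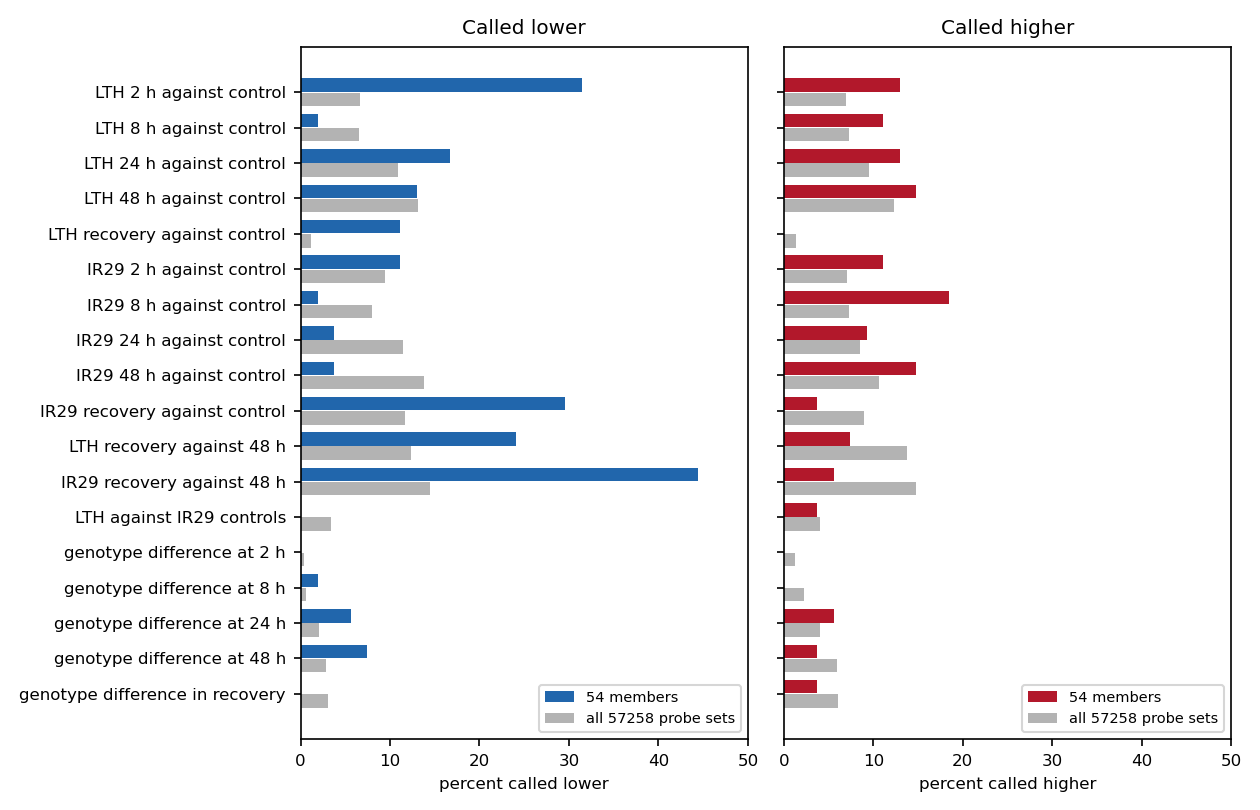
Coloured bars give the percentage of the 54 genes called lower (left) or higher (right) in each of the 18 comparisons, and grey bars give the percentage over all 57258 probe sets. In LTH at 2 h the lower bar reaches 31.5%, against a background of 6.62%.

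**Figure D3:**
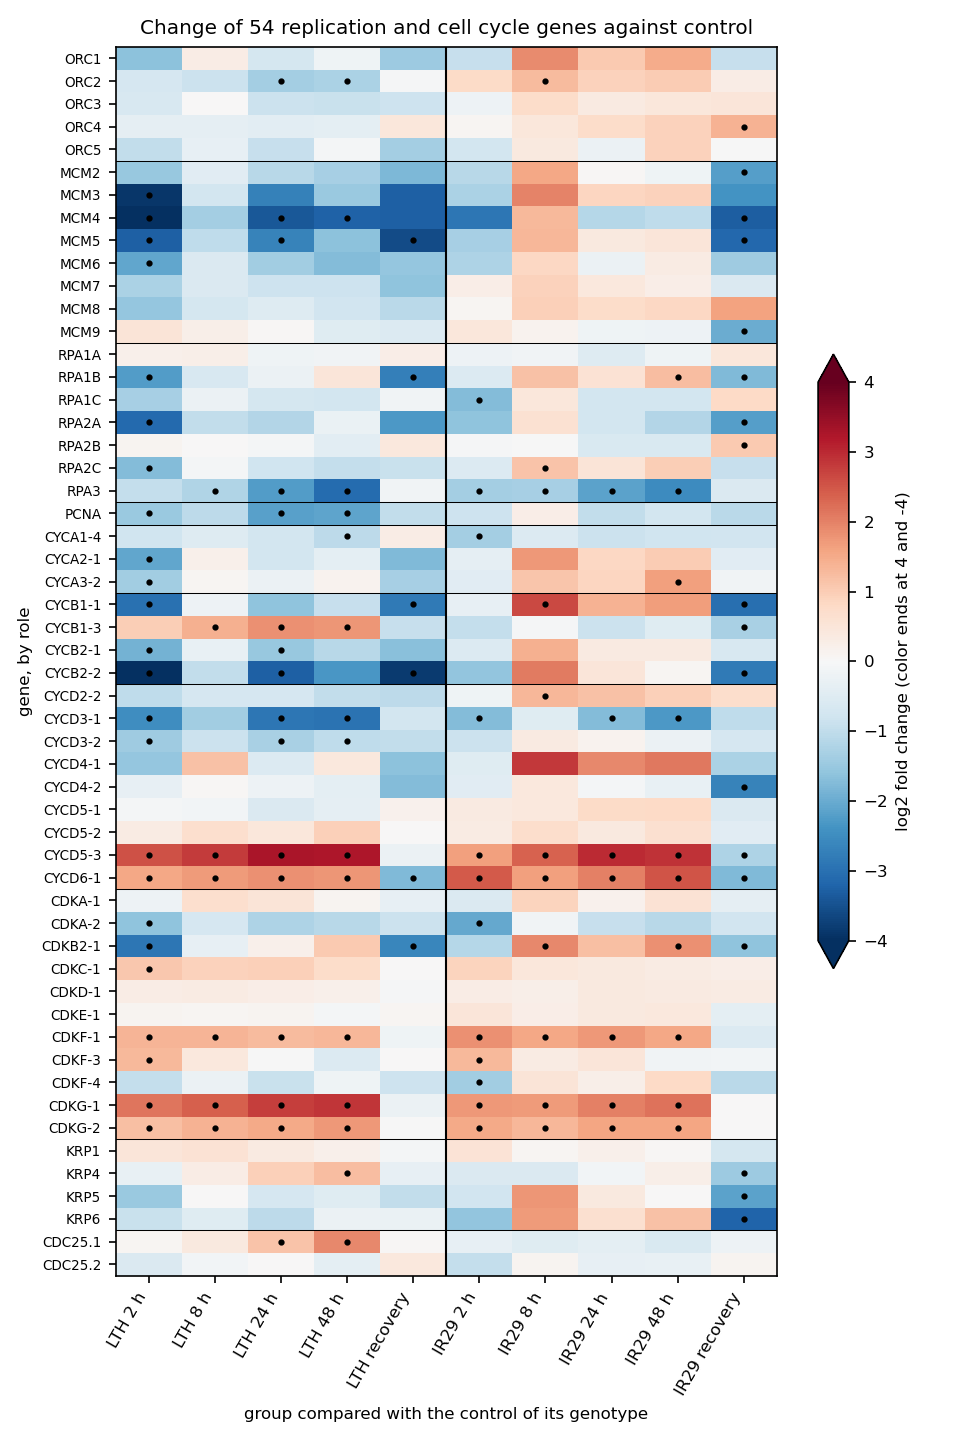
Colour gives the log2 fold change of each of the 54 genes, grouped by role, in the 10 comparisons with a control, and a dot marks a called change. CDKF-1, CDKG-1, CDKG-2, CYCD5-3 and CYCD6-1 are called higher at all 4 chilling times in both genotypes. The calls of MCM genes and B-type cyclins as lower fall mainly in LTH at 2 h and 24 h and in recovery of both genotypes.

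The MCM2 to MCM7 genes encode the subunits of the replicative helicase. In LTH at 2 h, MCM3, MCM4, MCM5 and MCM6 were lower, whereas MCM2 and MCM7 did not pass the test, and none of the 8 MCM genes was called in IR29 at any chilling time. MCM4 (LOC107275673) read 7.66, 5.10 and 14.9 in LTH at 2 h, against 152, 165 and 117 in the LTH control (log2 fold change -4.10, SE 1.15, adjusted p = 0.0097). All chilled arrays lay below all controls. MCM3 (LOC4339099) read 3.89, 4.04 and 4.89 in LTH at 2 h, against 68.9, 75.5 and 49.7 in the control (log2 fold change -3.90, SE 1.08, adjusted p = 0.0086). MCM5 (LOC4331016) read 14.7, 10.9 and 14.9, against 156, 140.3 and 97.2 (log2 fold change -3.26, SE 0.89, adjusted p = 0.0078). The change of these genes at 2 h was between 9.61-fold and 17.2-fold. Their arrays did not overlap, as was so for 47 of the 54 members in LTH at 2 h. MCM6 was the dimmest of them, at 5.97, 5.13 and 4.60 in LTH at 2 h, against 26.6, 21.9 and 17.9 (log2 fold change -2.07, SE 0.74, adjusted p = 0.047). MCM2 (log2 fold change -1.52 ± 0.69, SE) and MCM7 (-1.26 ± 0.50) had estimates on the same side, with adjusted p above the threshold. The call of MCM6 was lost without any 1 of the 6 arrays compared (log2 fold change -1.93 to -2.21, adjusted p = 0.073 to 0.14).

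The arrays of LTH at 8 h spread widely for these genes. MCM4 read 29.9, 30.5 and 189 in LTH at 8 h, where replicate 3 stood above every control array, against 152, 165 and 117 in the control (log2 fold change -1.37 ± 1.15, SE). At 24 h the LTH values of MCM4 were 4.20, 134 and 4.68, with replicate 2 at the control level and the other arrays below every control array (log2 fold change -3.38, SE 1.15, adjusted p = 0.027). At 48 h they were 7.09, 10.7 and 47.9 (log2 fold change -3.22, SE 1.15, adjusted p = 0.03). MCM4 was therefore called lower in LTH at 2, 24 and 48 h. MCM5 was called at 24 h in LTH with the same array standing apart (11.2, 139 and 5.37; log2 fold change -2.67, adjusted p = 0.023), and MCM3 and MCM6 were called lower at 24 h only when that array was left out. At 24 h the calls of MCM4 (-2.52 to -3.33, adjusted p = 0.068 to 0.16) and MCM5 (-1.71 to -2.60, adjusted p = 0.062 to 0.21) were lost without LTH 24 h replicate 1 or 3 or LTH control replicate 1 or 2. At 48 h the MCM4 call was lost without LTH 48 h replicate 1 or 2 or any 1 control array (-2.66 to -3.37, adjusted p = 0.052 to 0.13). In IR29, MCM4 read 30.4, 79.0 and 9.0 in the control, 8.00, 2.53 and 2.70 at 2 h and 97.0, 41.5 and 77.9 at 8 h, and all arrays at 2 h lay below every control array without a call (log2 fold change -2.88 ± 1.15, SE, adjusted p = 0.07). The standard errors of the log2 fold changes of MCM2 to MCM5 were 0.69 to 1.15, so that changes of 2-fold to 4-fold in these genes could miss the threshold.

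In recovery, MCM genes were called lower in both genotypes, 1 in LTH and 4 in IR29. MCM5 read 4.52, 41.7 and 6.80 in LTH recovery, against 156, 140.3 and 97.2 in its control (log2 fold change -3.57, SE 0.89, adjusted p = 0.018), and 6.17, 2.09 and 4.41 in IR29 recovery, against 30.8, 80.8 and 15.2 (log2 fold change -3.13, SE 0.89, adjusted p = 0.0077). It was the only MCM gene called in LTH recovery, where replicate 2 lay above the other arrays, and 4 of 8 (MCM2, MCM4, MCM5 and MCM9) were called in IR29 recovery. Without IR29 control replicate 2, only MCM9 of these was called in IR29 recovery, and MCM2 was at -1.62 (adjusted p = 0.12), MCM4 at -2.55 (adjusted p = 0.16) and MCM5 at -2.49 (adjusted p = 0.064). The MCM2 call was also lost without IR29 recovery replicate 1 or 3, and the MCM4 call without IR29 recovery replicate 2 or 3 or IR29 control replicate 1. In LTH recovery the MCM5 call was lost without replicate 1 or 3, or LTH control replicate 1 or 2 (-2.93 to -3.50, adjusted p = 0.073 to 0.14). MCM9, a relative of the helicase subunits that acts in DNA repair in animals, gave the tightest of these values, 18.6, 21.2 and 19.9 in IR29 recovery, against 70.3, 90.8 and 78.5 in the control (log2 fold change -2.0, SE 0.23, adjusted p = 4e-08). In LTH recovery MCM9 read 55.0, 45.6 and 56.3, against 63.8, 81.8 and 82.8 (log2 fold change -0.54 ± 0.23, SE), and the response differed between the genotypes (LTH minus IR29, 1.46, adjusted p = 0.0022). MCM7, called in none of the 18 comparisons, read 5.11, 13.2 and 18.5 in LTH at 2 h, against 27.1, 23.6 and 26.6. MCM8 was near the lowest signals of the array (means under 20) and was called in no comparison.

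None of the 5 ORC genes, which mark replication origins, was called lower at 2 h in either genotype, though all 5 estimates in LTH were below 0. ORC1, named after its values were seen, read 5.54, 7.80 and 7.56 in LTH at 2 h, against 22.4, 26.0 and 17.3 in the control, with no overlap (log2 fold change -1.65 ± 0.81, SE, adjusted p = 0.16). In LTH at 24 h it read 5.95, 82.7 and 4.68, high in the same array as the MCM genes. Without that array, ORC1, ORC2, ORC3 and ORC5 were called lower in LTH at 24 h, and with it ORC2 alone. ORC2 (LOC4331860) moved in opposite directions in the genotypes. It read 25.0, 54.3 and 29.5 in LTH at 48 h, against 98.4, 77.1 and 76.3 in its control (log2 fold change -1.28, SE 0.27, adjusted p = 0.00039), and 268, 164 and 275 in IR29 at 48 h, against 112, 127 and 107 (log2 fold change 1.00 ± 0.27, SE, adjusted p = 0.005). The IR29 estimate at 48 h rounded to 2-fold but was not called, whereas at 8 h it was (228, 315 and 298; 1.27, adjusted p = 0.00081). ORC2 was also called lower in LTH at 24 h (-1.36), and its signal in LTH recovery overlapped the control, at 77.9, 72.8 and 92.6. ORC4 was higher in IR29 recovery, at 52.0, 49.6 and 52.6, against 23.0, 18.1 and 18.3 in the control (log2 fold change 1.39, SE 0.24, adjusted p = 4.6e-05), a member chosen for its values, and its next brightest probe set was not called there. ORC3 read 8.21, 5.76 and 5.87 in LTH at 2 h, against 10.4, 11.2 and 9.03 in the control, and ORC3 was called in none of the 18 comparisons with all arrays.

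Among the fork proteins, RPA3 and PCNA fell, whereas RPA1A and RPA2B stayed within 2-fold of the control during chilling. RPA3 (LOC4327706), the smallest subunit of replication protein A, declined through chilling in both genotypes. In LTH it read 418, 448 and 423 in the control, 218, 213 and 240.2 at 2 h, 169.7, 172 and 222 at 8 h, 90.8, 116 and 75.0 at 24 h and 45.6, 52.0 and 56.2 at 48 h. In IR29 it read 378, 406 and 426 in the control, 172, 144 and 154 at 2 h, 172, 149 and 162 at 8 h, 88.1, 74.3 and 116 at 24 h and 65.5, 70.1 and 77.1 at 48 h. No chilled array overlapped a control array in either genotype, and 48 h was the lowest time in both. The log2 fold changes in LTH were -0.94, -1.20, -2.22 and -3.07 (SE 0.17 each), so that RPA3 was called at 8, 24 and 48 h but at 2 h missed the 2-fold minimum (adjusted p = 8.1e-05). In IR29 they were -1.37, -1.32, -2.14 and -2.51, all called, and the responses of the genotypes did not pass the test of their difference (LTH minus IR29 at 48 h -0.56 ± 0.23, SE). In LTH recovery the arrays read 426, 356 and 399, overlapping the control, and in IR29 recovery 254, 328 and 236, below every control array (log2 fold change -0.58, adjusted p = 0.0081). Over 48 h arrays, recovery was higher in LTH by 2.94 and in IR29 by 1.93 in log2 units.

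PCNA (LOC4331062) was lower in LTH at 2 h, at 136, 119 and 146, against 382, 363 and 386 in the control (log2 fold change -1.50, SE 0.50, adjusted p = 0.032). The call was lost without any 1 of the 6 arrays compared (-1.42 to -1.57, adjusted p = 0.059 to 0.098). At 48 h in LTH it read 68.0, 68.0 and 140.2 (log2 fold change -2.12, SE 0.50, adjusted p = 0.0012), and at 24 h 45.6, 249.5 and 51.0 (log2 fold change -2.18, adjusted p = 0.0012). In IR29, PCNA read 116, 46.2 and 187 at 48 h, against 160.2, 245 and 116 in the control, with overlapping arrays (log2 fold change -0.73 ± 0.50, SE), and the gene was called at no time. The other subunits of replication protein A came as several copies that differed among themselves. RPA1B read 12.2, 13.6 and 8.53 in LTH at 2 h, against 58.4, 53.5 and 45.8 (log2 fold change -2.22, SE 0.47, adjusted p = 0.00069), yet at 48 h it read 84.4, 49.99 and 89.8 (log2 fold change 0.47 ± 0.47, SE). RPA2A read 16.7, 3.81 and 9.58 in LTH at 2 h, against 82.3, 74.7 and 62.2 (log2 fold change -3.10, SE 0.69, adjusted p = 0.0014). RPA2C, a dim probe set, read 4.63, 5.38 and 4.76, against 18.6, 14.9 and 15.4 (log2 fold change -1.72, SE 0.43, adjusted p = 0.0034). RPA1B, RPA2A and RPA2C thus shared the low values of the MCM genes in LTH at 2 h. RPA1A, the copy called in no comparison, read 99.7, 124 and 117 in LTH at 2 h, against 103, 101 and 90.9 (log2 fold change 0.21 ± 0.17, SE). In IR29 recovery, RPA1B was lower (2.45, 4.39 and 7.11, against 12.1, 34.4 and 7.34; log2 fold change -1.77, adjusted p = 0.004). RPA2B, named here after its values were seen, was higher there (207, 198 and 226, against 107, 94.7 and 102; 1.06, adjusted p = 4.5e-06). RPA2A, a copy of the same subunit, was lower in the same arrays (-2.21, adjusted p = 0.016). Without IR29 control replicate 2, the calls of RPA1B (-1.15, adjusted p = 0.07) and RPA2A (-1.58, adjusted p = 0.13) were lost, and RPA2A was also lost without IR29 recovery replicate 3 (-1.73, adjusted p = 0.11).

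**Figure D4:**
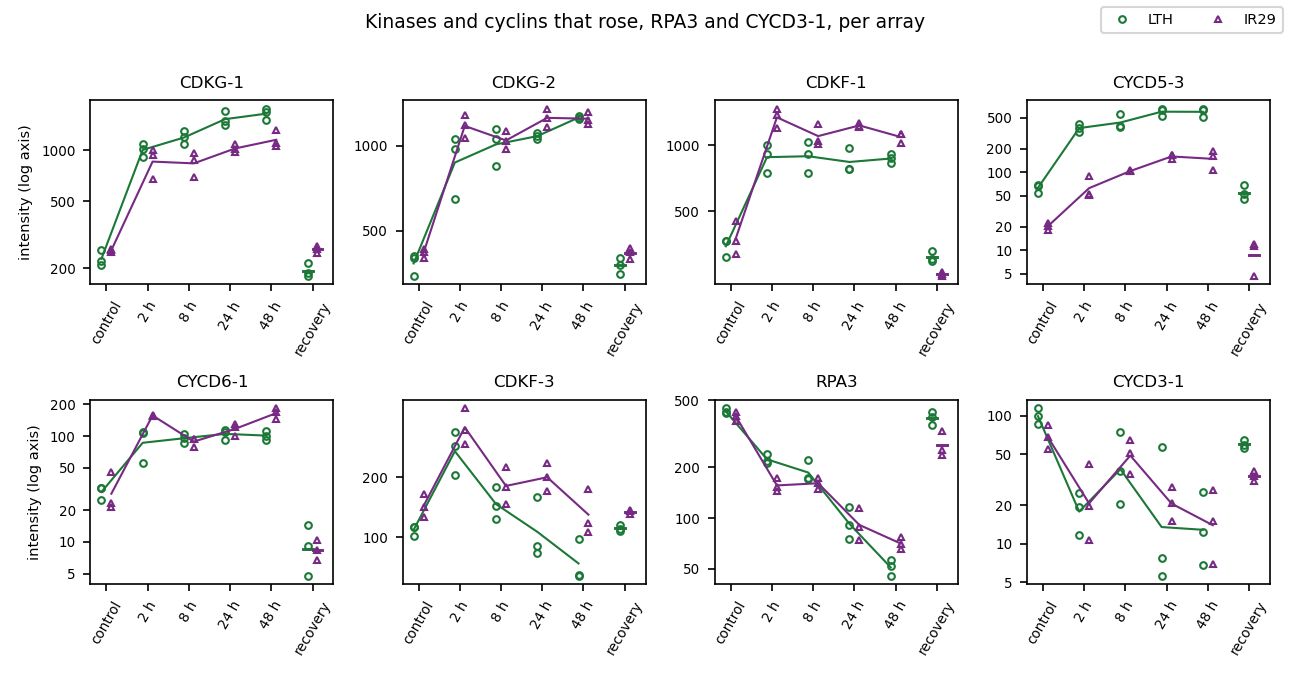
Points are single arrays on a log intensity axis, lines join the geometric means of the control and the chilling times, and a short bar gives the recovery mean, for members with steady or large changes in LTH (circles) and IR29 (triangles). The mean of RPA3 declines at each later time in LTH, whose arrays read 45.6, 52.0 and 56.2 at 48 h, while CDKG-1 and CYCD5-3 are above their controls at every chilling time and back near or below them in recovery.

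Of the 7 A- and B-type cyclins, which drive DNA synthesis and mitosis, 5 were lower in LTH at 2 h and none was higher. CYCB2-2 (LOC4342121) gave the largest change of any member in a comparison with a control, 10.7, 3.02 and 7.94 in LTH at 2 h, against 126, 114 and 106 in the control (log2 fold change -4.18, SE 1.06, adjusted p = 0.0045). CYCB1-1 (LOC4327547) read 29.0, 20.4 and 18.1, against 198, 158 and 163 (log2 fold change -2.97, SE 0.81, adjusted p = 0.0083). CYCB2-1, CYCA2-1 and CYCA3-2, named after their values were seen, were lower by log2 fold changes of -1.89, -2.09 and -1.40. The groups of arrays did not overlap for any of these 5 cyclins, but they did not overlap for 47 of the 54 members in this comparison. The share over all probe sets was not worked out. The call of CYCA2-1 was lost without LTH 2 h replicate 2 or 3 or LTH control replicate 1 or 2 (-1.90 to -2.09, adjusted p = 0.061 to 0.087), and that of CYCB2-1 without LTH 2 h replicate 2 (-1.74, adjusted p = 0.057) or LTH control replicate 1 (-1.75, adjusted p = 0.058). In IR29 at 2 h, CYCB2-2 read 24.4, 4.34 and 4.03, against 22.6, 56.9 and 8.98 in the control (log2 fold change -1.59 ± 1.06, SE), with replicate 1 well above the other chilled arrays. CYCA1-4 was the A- or B-type cyclin called lower in IR29 at 2 h (57.4, 40.2 and 19.5, against 86.8, 85.7 and 103; -1.36, adjusted p = 0.00042). Without IR29 2 h replicate 3 it was under 2-fold (-0.93, adjusted p = 0.0099).

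At 8 h, CYCB1-1 and CDKB2-1, genes of mitosis, were called higher in IR29. CYCB1-1 read 306, 126 and 244 in IR29 at 8 h, against 33.3, 90.4 and 13.3 in the control (log2 fold change 2.63, SE 0.81, adjusted p = 0.018). CDKB2-1 (LOC4346016), a plant-specific kinase of the passage into mitosis, read 158, 97.1 and 145, against 29.9, 78.3 and 17.1 (log2 fold change 1.93, SE 0.54, adjusted p = 0.0089). All 3 chilled arrays of both genes lay above all control arrays. Without IR29 8 h replicate 1 or 3 or IR29 control replicate 3 the call of CYCB1-1 was lost (1.95 to 2.52, adjusted p = 0.057 to 0.14), and without IR29 control replicate 3 that of CDKB2-1 was lost too (1.43, adjusted p = 0.094). OSH1 read 133, 70.7 and 138 in IR29 at 8 h, against 11.7, 22.5 and 3.85 in the control (adjusted p = 0.06). OSH71, HOS66 and PLA3 of the meristem list were called higher there, of which HOS66 was not a class I KNOX gene. Whether the tissue sampled had a part in the higher values was not tested. The count of members called higher in IR29 at 8 h was 10, and without IR29 control replicate 2 it was 15. At 48 h CDKB2-1 was again higher in IR29, at 119, 135 and 111 (log2 fold change 1.82, SE 0.54, adjusted p = 0.0092), though not without IR29 control replicate 3 (1.32, adjusted p = 0.092), and CYCB1-1 was not called (119.7, 46.3 and 240.3; 1.68 ± 0.81, SE). In LTH, CDKB2-1 read 16.9, 12.9 and 11.6 at 2 h, against 119.6, 109.7 and 77.1 in the control (log2 fold change -2.88, SE 0.54, adjusted p = 0.0002), and 327, 179.7 and 154 at 48 h, all above the control arrays but not called (log2 fold change 1.06 ± 0.54, SE, adjusted p = 0.14). The kinase thus lay below the control at 2 h and above it at 48 h, while CYCB1-1 in LTH at 48 h read 76.7, 50.5 and 197 and overlapped its control.

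CYCB1-3 was an exception among the B-type cyclins. It was higher in LTH at 8, 24 and 48 h, at 28.2, 22.7 and 24.9 at 48 h, against 7.35, 6.77 and 8.41 in the control (log2 fold change 1.75, SE 0.50, adjusted p = 0.006). The call at 8 h was lost without any 1 of the 6 arrays compared (1.35 to 1.56, adjusted p = 0.054 to 0.11), and that at 24 h without LTH 24 h replicate 3 (1.37, adjusted p = 0.061). In IR29 it read 2.98, 4.46 and 5.75 at 48 h, against 4.44, 8.07 and 5.98 (log2 fold change -0.50 ± 0.50, SE). Its signal was dim in all groups, and the annotation also lists the gene under names of other B1 cyclins, so its identity rests on the probe set's annotation alone.

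In recovery, 6 members were called lower in both genotypes, namely CDKB2-1, CYCB1-1, CYCB2-2, CYCD6-1, MCM5 and RPA1B. They were all 6 of the members called lower in LTH recovery and 6 of the 16 in IR29 recovery. The share of all probe sets called lower in both was not worked out, so this joint count has no background beside it. Without IR29 control replicate 2, CYCD6-1 alone of the 6 was called in IR29 recovery, and the others were at -1.02 for CDKB2-1 (adjusted p = 0.21), -2.33 for CYCB1-1 (adjusted p = 0.053), -2.15 for CYCB2-2 (adjusted p = 0.21), -2.49 for MCM5 (adjusted p = 0.064) and -1.15 for RPA1B (adjusted p = 0.07). The IR29 calls of CDKB2-1 and CYCB2-2 were also lost without IR29 recovery replicate 2 or 3, and that of CYCB2-2 without IR29 recovery replicate 1 or IR29 control replicate 1. In LTH recovery, the calls of CYCB1-1 (-2.38 to -2.89, adjusted p = 0.12 to 0.24) and CYCB2-2 (-3.40 to -3.89, adjusted p = 0.1 to 0.19) were lost without LTH recovery replicate 1 or 3 or any 1 control array. CYCB1-1 read 13.0, 54.1 and 20.2 in LTH recovery, against 198, 158 and 163 in its control (log2 fold change -2.83, SE 0.81, adjusted p = 0.049), and 2.85, 4.64 and 5.60 in IR29 recovery, against 33.3, 90.4 and 13.3 (log2 fold change -3.03, SE 0.81, adjusted p = 0.0049). CDKB2-1 read 10.8, 26.2 and 15.7 in LTH recovery, against 119.6, 109.7 and 77.1 (log2 fold change -2.61, SE 0.54, adjusted p = 0.0037). In IR29 recovery it read 13.4, 9.43 and 10.98, against 29.9, 78.3 and 17.1 (log2 fold change -1.62, SE 0.54, adjusted p = 0.024). Neither gene overlapped its control in recovery of either genotype. OSH1 and YAB3 in LTH recovery read 2.11, 77.4 and 4.00 and 1.92, 41.0 and 4.39, against 62.0, 49.99 and 21.4 and 67.5, 60.8 and 44.9 in the control, and were not called (adjusted p = 0.51 and 0.26).

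Set against the end of chilling, the recovery arrays gave 13 members lower in LTH (background 12.3%) and 4 higher (13.8%). In IR29, 24 of 54 were lower (14.5%) and 3 higher (14.8%). The median over the members was -0.50 in LTH and -1.05 in IR29. In IR29 the 24 lower members held 4 of 8 MCM genes, 6 of 9 D-type cyclins, 5 of 11 kinases and 3 of 4 KRP genes. Of these 24 calls, 8 were lost without some 1 array of the groups compared, as were 2 of the 13 in LTH. Without IR29 48 h replicate 2 the count lower was 28, and without replicate 3 it was 16. Members higher in recovery than at 48 h were CYCA1-4, CYCD3-1, ORC2 and RPA3 in LTH, and RPA1C, RPA2B and RPA3 in IR29. Without IR29 48 h replicate 2 the RPA1C call was lost (0.90, adjusted p = 0.17).

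The D-type cyclins, which respond to growth signals and start the cell cycle, split into risers and fallers. CYCD5-3 (LOC4331985) was called higher at all 4 chilling times in both genotypes. In LTH it read 54.3, 69.2 and 67.5 in the control, 332, 414 and 371 at 2 h, 378, 559 and 397 at 8 h, 639, 531 and 645 at 24 h and 659.8, 626 and 523 at 48 h. In IR29 it read 22.7, 20.4 and 18.1 in the control, 90.0, 53.2 and 51.6 at 2 h, 106, 103 and 103 at 8 h, 148, 166 and 167 at 24 h and 161, 109 and 189.9 at 48 h. Every chilled array of each genotype lay above every control array of that genotype, and at 48 h the change was 9.48-fold in LTH (log2 fold change 3.24 ± 0.26, SE, adjusted p = 4.3e-11) and 7.34-fold in IR29 (2.88 ± 0.26, adjusted p = 6.3e-10). In recovery it read 52.0, 45.6 and 68.2 in LTH, overlapping the control, and 11.9, 11.4 and 4.66 in IR29, below it (log2 fold change -1.24, adjusted p = 0.00047), but under 2-fold without IR29 recovery replicate 3 (-0.80, adjusted p = 0.011). The LTH control was higher than the IR29 control for this gene (log2 fold change 1.64, SE 0.26, adjusted p = 3.1e-05). CYCD6-1, named after its values were seen, was called higher at the same 8 comparisons, with log2 fold changes of 1.54 to 1.82 in LTH and 1.64 to 2.53 in IR29. It then dropped below the control in recovery of both, at 9.17, 14.5 and 4.79 in LTH recovery, against 25.0, 32.0 and 32.6 in the control, and at 10.3, 8.4 and 6.79 in IR29 recovery, against 23.4, 46.0 and 21.6 (log2 fold changes -1.78 and -1.77).

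CYCD3-1 (LOC4340499) went the other way. It read 12.4, 6.84 and 25.3 in LTH at 48 h, against 115, 86.8 and 98.96 in the control (log2 fold change -2.95, SE 0.61, adjusted p = 0.00029), and 15.1, 6.95 and 26.1 in IR29 at 48 h, against 67.9, 84.8 and 55.2 (log2 fold change -2.29, SE 0.61, adjusted p = 0.004). It was called lower at 2, 24 and 48 h in both genotypes and at 8 h in neither (-1.38 in LTH and -0.48 in IR29). At 2 h CYCD3-1 was, with CDKA-2, 1 of 2 members called lower in both genotypes, a count for which no background was worked out. The 2 h values were 25.08, 19.4 and 11.7 in LTH (-2.48, adjusted p = 0.0036) and 41.9, 19.9 and 10.7 in IR29 (-1.72, adjusted p = 0.04). The IR29 call at 2 h was lost without any 1 of the arrays compared other than IR29 2 h replicate 1 (-1.24 to -1.87, adjusted p = 0.056 to 0.22), and that at 24 h without IR29 24 h replicate 2 or 3 or IR29 control replicate 1 or 2 (-1.50 to -1.73, adjusted p = 0.073 to 0.12). Recovery arrays read 65.3, 56.5 and 59.0 in LTH, higher than at 48 h by 2.22 in log2 units (adjusted p = 0.0047), yet still below every control array. CYCD3-2 was lower in LTH at 2, 24 and 48 h as well (-1.42, -1.29 and -1.03) and at no time in IR29. Its call at 24 h was lost without LTH 24 h replicate 1 or 3 or LTH control replicate 1 (-0.97 to -1.13, adjusted p = 0.059 to 0.09), and at 48 h without any 1 array other than LTH control replicate 2 (-0.86 to -1.11, adjusted p = 0.054 to 0.15). CYCD4-2 was called lower in IR29 recovery (6.76, 9.38 and 8.41, against 47.2, 56.9 and 51.2; log2 fold change -2.67, SE 0.65, adjusted p = 0.002). CYCD5-2, the brightest D-type cyclin, read 172, 184 and 151 in LTH at 48 h, against 84.5, 91.5 and 87.4 in the control, just short of the 2-fold minimum (log2 fold change 0.94 ± 0.19, SE, adjusted p = 0.00025). Its other probe set, much dimmer, went the other way, and was called lower in LTH at 2 h (-1.67), 8 h (-1.29), 24 h (-1.51) and recovery (-1.53) and not at 48 h (-0.71). CYCD4-1 had the widest spread among the D-type cyclins at 24 h, at 16.5, 407 and 8.21 in LTH, where replicate 2 was far above the rest, and it was called in no comparison with a control.

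Among the 11 kinases, CDKF-1, CDKG-1 and CDKG-2 rose at every chilling time in both genotypes at their brightest probe sets. CDKG-1 (LOC4329899), whose Arabidopsis relative acts in splicing and meiosis, gave the largest of these changes. In LTH it read 208, 257 and 220.4 in the control, 1013, 1095 and 913 at 2 h, 1199, 1293 and 1082 at 8 h, 1412, 1481 and 1703 at 24 h and 1683, 1505 and 1763 at 48 h. In IR29 it read 257, 249.8 and 261 in the control, 673, 1003 and 931 at 2 h, 871, 963 and 696 at 8 h, 1011, 1089 and 976 at 24 h and 1063, 1317 and 1096 at 48 h. All chilled arrays exceeded all controls, and the change at 48 h was 7.23-fold in LTH (log2 fold change 2.85 ± 0.14, SE, adjusted p = 1.8e-15) and 4.51-fold in IR29 (2.17 ± 0.14, adjusted p = 5.8e-13). The genotype difference of the CDKG-1 response was 0.74 at 24 h (adjusted p = 0.016) and 0.68 at 48 h (adjusted p = 0.022), under the 2-fold minimum. In recovery the gene read 179.9, 216 and 187 in LTH and 270.1, 248 and 262 in IR29, close to the controls.

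CDKG-2, the brightest kinase, rose by 1.19 to 1.72 in log2 units in LTH and by 1.32 to 1.59 in IR29. At 48 h it read 1275, 1247 and 1248 in LTH, against 345, 400.3 and 405 in the control, and in LTH recovery 351, 378 and 401. The next probe set of CDKG-2 was called higher in IR29 at 2 h (1.01) and at no other chilling time, with log2 fold changes of 0.09 to 0.81 in LTH and 0.21 to 0.84 in IR29 at the later times. CDKF-1 (LOC4340934), a kinase that activates other CDK-activating kinases in Arabidopsis, was highest in IR29 at 2 h, at 1473, 1373 and 1199, against 319.9, 452 and 364 in the control (log2 fold change 1.84, SE 0.14, adjusted p = 2.4e-11). In LTH at 2 h it read 1007, 913 and 749.6, against 309, 366 and 365 (log2 fold change 1.35, SE 0.14, adjusted p = 1.1e-08), and its later changes lay between 1.28 and 1.37. In recovery the arrays overlapped the control in LTH, at 302, 295 and 328, and lay below it in IR29, at 264, 259 and 253. CDKF-3 rose at 2 h alone (1.30 in LTH and 1.31 in IR29), and CDKC-1, a kinase of RNA polymerase II, in LTH at 2 h (1.07), both named after their values were seen. CDKC-1 was under 2-fold without LTH 2 h replicate 2 or 3 or LTH control replicate 1 (0.95 to 0.97).

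Neither of the CDKA genes, whose kinases act through much of the cell cycle, was called higher. CDKA-2 was lower at 2 h in both genotypes, at 22.6, 13.4 and 23.8 in LTH, against 68.2, 63.9 and 45.8 in the control (log2 fold change -1.60, SE 0.49, adjusted p = 0.019), and at 23.2, 9.82 and 9.81 in IR29, against 52.0, 71.0 and 43.6 (log2 fold change -2.06, SE 0.49, adjusted p = 0.002). The LTH call was lost without LTH 2 h replicate 2 or LTH control replicate 1 or 2 (-1.33 to -1.53, adjusted p = 0.059 to 0.1) and was not made at the next probe set (-0.80). CDKA-1, the other CDKA gene, was called in no comparison, and its log2 fold change at 2 h was -0.20 ± 0.37 (SE) in LTH and -0.59 ± 0.37 in IR29. CDKF-4 was lower in IR29 at 2 h (-1.39, adjusted p = 0.039), but not without IR29 2 h replicate 2 or 3 or IR29 control replicate 1 or 2 (-1.11 to -1.50, adjusted p = 0.06 to 0.17), and not at its next probe set (-0.50). CDKD-1, a CDK-activating kinase, read 482, 499.8 and 411 in LTH at 2 h, against 372, 384 and 372, and 529, 535 and 460.4 in IR29 at 2 h, against 407, 409.5 and 422. Its changes over the 8 chilling comparisons were at most 0.40 in log2 units, and it was not called. CDKE-1, the Mediator kinase, was not called at its brightest probe set (409, 401 and 326 in IR29 at 2 h, against 256, 265 and 296; log2 fold change 0.47 ± 0.15, SE). A second probe set annotated to CDKE-1 behaved otherwise, at 979, 851 and 1099.7 in IR29 at 2 h, against 52.0, 24.2 and 25.6 in the control. Which of the pair reads the CDKE-1 transcript was not tested.

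The KRP genes, inhibitors of cyclin-dependent kinases, were mostly not called during chilling, and 3 of 4 were called lower in IR29 recovery. KRP4 was higher in LTH at 48 h, at 466, 486 and 477, against 185, 203 and 225 in the control (log2 fold change 1.23, SE 0.16, adjusted p = 3e-07), and was the 1 KRP gene called at any chilling time. In IR29 at 48 h KRP4 read 328, 460.2 and 268, against 310.3, 276 and 294 (log2 fold change 0.23 ± 0.16, SE). In IR29 recovery it read 99.2, 122.99 and 99.8, against 310.3, 276 and 294 (log2 fold change -1.46, SE 0.16, adjusted p = 2e-08), with no overlap. KRP6 read 5.89, 10.1 and 6.97 in IR29 recovery, against 59.9, 140.4 and 37.5 (log2 fold change -3.19, SE 0.91, adjusted p = 0.0081), and KRP5 read 9.6, 10.5 and 9.59, against 46.3, 78.3 and 23.2 (log2 fold change -2.15, SE 0.75, adjusted p = 0.031). Without IR29 control replicate 2, KRP4 alone was called there, with KRP6 at -2.67 (adjusted p = 0.055) and KRP5 at -1.73 (adjusted p = 0.15). KRP5 was also lost without any 1 other array compared except IR29 control replicate 3, and KRP6 was not called at its next probe set (-0.95). No KRP gene was called in LTH recovery, where KRP6 read 31.7, 69.4 and 50.5, against 65.2, 65.6 and 44.5. The genotype difference of the recovery response was called for KRP4 (1.13, adjusted p = 0.00078) but not for KRP6 (2.93 ± 1.29, SE) or KRP5 (1.15 ± 1.06). KRP1, the brightest and called in no comparison, read 525, 463 and 379 in LTH at 2 h, against 322, 333 and 320.4 (log2 fold change 0.47 ± 0.12, SE, adjusted p = 0.0045), a shift under 2-fold. None of the KRP4 calls was made at its next probe set, which gave 0.05 in LTH at 48 h, -0.47 in IR29 recovery, and genotype differences of 0.59 at 24 h and 0.87 in recovery. Its arrays read 16.5, 9.56 and 4.80 in LTH at 48 h, against 4.94, 13.1 and 10.6 in the control.

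The pair of genes with CDC25 names also carries ACR2 names, after an arsenate reductase of yeast, in the RefSeq gene table. CDC25 phosphatases activate mitotic kinases in animals and yeast, and the role of the rice genes in division is not given by the annotation. CDC25.1 (LOC4349283) rose in LTH alone. It read 4253, 3949.5 and 3725 in LTH at 48 h, against 979.6, 1113 and 1064 in the control (log2 fold change 1.92, SE 0.16, adjusted p = 7.4e-11), and 572, 760.0 and 494 in IR29 at 48 h, against 953, 816 and 1001 (log2 fold change -0.62, SE 0.16, adjusted p = 0.0029). The LTH arrays at 48 h lay above all other arrays of both genotypes, and the difference of the responses at 48 h was 2.54 (adjusted p = 4.2e-08). In LTH recovery the gene was back at 1194, 1008 and 1082. CDC25.2 was called in no comparison, and read 232, 196 and 158 in IR29 at 2 h, against 376, 374 and 358 (log2 fold change -0.94 ± 0.22, SE).

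The comparison of the untreated plants asked how the genotypes differed before chilling. CYCD5-3 and RPA1B were higher in LTH than in IR29 (2 of 54; background 4.07%), and no member was lower (3.44%), with 17 members higher and 3 lower at an unadjusted p below 0.05. RPA1B read 58.4, 53.5 and 45.8 in LTH, against 12.1, 34.4 and 7.34 in IR29 (log2 fold change 1.85, SE 0.47, adjusted p = 0.0072), and was not called without IR29 control replicate 3 (1.36, adjusted p = 0.1). The median over the members was 0.52, and the MCM genes had a median of 1.69, but replicate 2 of the IR29 control was as high as 80.8 for MCM5, beside 30.8 and 15.2 in the other arrays. Without that array, 5 members were higher in LTH (CDKB2-1, CYCB1-1, CYCD5-3, MCM2 and RPA1B). Leaving out arrays of other groups also moved this count, to 5 without LTH 24 h replicate 2 and to 4 without IR29 2 h replicate 1 or LTH 8 h replicate 3. Probe sets were designed mostly on japonica sequence, and whether sequence differences of IR29 lower its signals was not tested.

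The difference of the responses, LTH minus IR29, was called for few members. At 2 h none was higher (background 1.19%) or lower (0.402%) by limma, with 2 higher and 7 lower at an unadjusted p below 0.05, and the methods' t-test gave 7 in all without adjustment and 0 after it. The genotype difference of MCM4 there was -1.23 ± 1.63 (SE), so that the lower counts of LTH and IR29 at 2 h, 17 and 6, were not shown to reflect different responses of any 1 gene. Without any 1 of 9 arrays (IR29 2 h replicate 3, IR29 48 h replicates 2 and 3, LTH 8 h replicates 2 and 3, LTH 24 h replicates 2 and 3, and LTH 48 h replicates 1 and 2), 1 member was lower. At 8 h only ORC2 was called, lower in LTH (log2 fold change -2.14, SE 0.39, adjusted p = 0.0013; background 0.589% lower and 2.26% higher). At 24 h, 3 were higher (4.02%) and 3 lower (2.09%), and at 48 h, 2 were higher (5.89%) and 4 lower (2.82%). The members on the higher side were CDC25.1 and CYCB1-3 at both times and KRP4 at 24 h, and those on the lower side were CYCD5-1, ORC2 and ORC4 at both times and RPA2C at 48 h. CYCD5-1 read 45.3, 32.3 and 24.2 in LTH at 24 h, against 44.9, 48.9 and 52.7 in its control, and 81.4, 82.0 and 71.7 in IR29 at 24 h, against 42.3, 56.0 and 40.05 (difference -1.35, SE 0.38, adjusted p = 0.025). Neither genotype's own change was called. In recovery, KRP4 and MCM9 were higher (6.0%) and none was lower by limma (3.02%), and 8 were higher and 5 lower at an unadjusted p below 0.05. The counts that follow, each without 1 array, have no share of all probe sets beside them. Without LTH 24 h replicate 2, 17 members were lower and 3 higher in the difference at 24 h. Without LTH 24 h replicate 3 or IR29 24 h replicate 2, 1 was lower and 2 were higher. At 8 h, 2 were lower and 2 higher without LTH 8 h replicate 3, and 3 were lower without IR29 control replicate 2. In recovery, 1 was lower and 3 higher without IR29 2 h replicate 3. At 48 h, 2 were lower and 1 higher without IR29 48 h replicate 1, IR29 control replicate 3, or LTH control replicate 1 or 2.

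**Figure D5:**
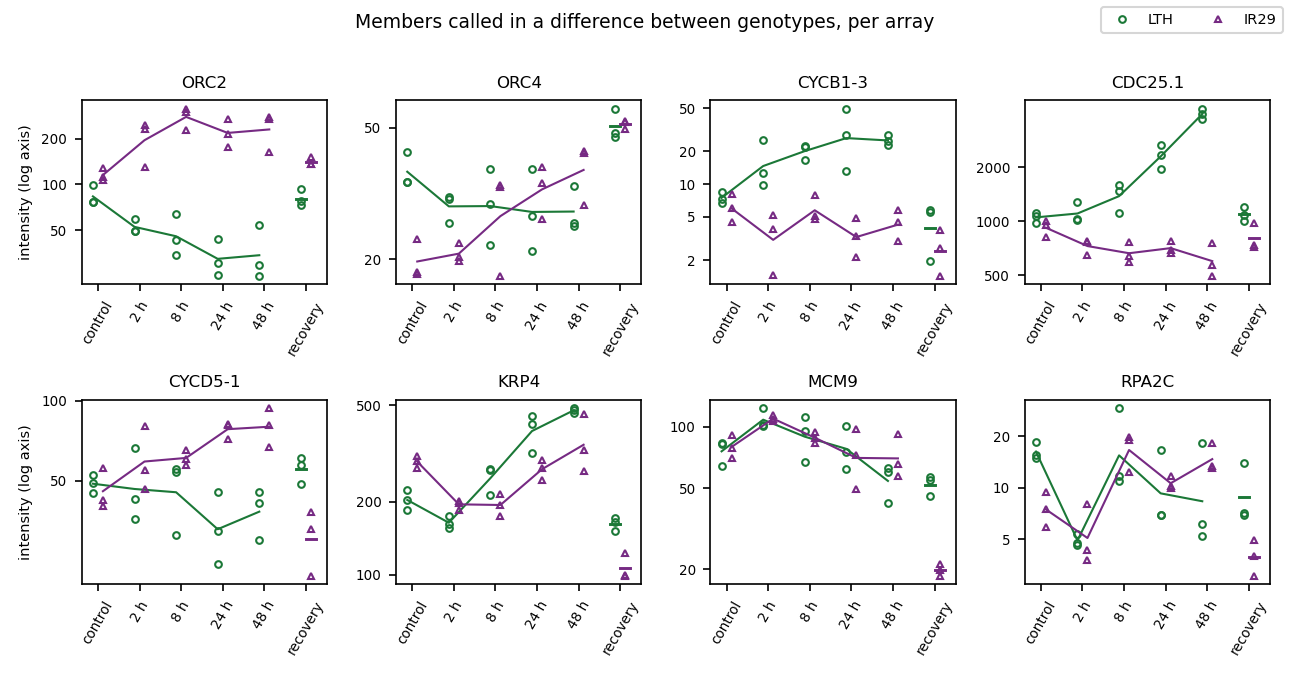
Points are single arrays on a log intensity axis (arbitrary units), lines join the geometric means of the control and the chilling times, and a short bar gives the recovery mean, for the 8 members called in a genotype difference in LTH (circles) and IR29 (triangles). The lines of CDC25.1 and ORC2 move apart during chilling, to 4253, 3949.5 and 3725 for CDC25.1 in LTH at 48 h and 572, 760.0 and 494 in IR29.

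Genes of the same pathway that the naming rule leaves out were also called in both directions. Of 23 such genes, 3 were lower (background 6.62%) and 2 higher (6.99%) in LTH at 2 h, and 1 (6.5%) and 2 (7.26%) at 8 h. The LTH counts were 6 (10.9%) and 2 (9.46%) at 24 h, and 6 (13.1%) and 2 (12.3%) at 48 h. In IR29 they were 4 (9.49%) and 2 (7.05%) at 2 h, and 1 (7.98%) and 4 (7.24%) at 8 h. At 24 h they were 2 (11.4%) and 3 (8.54%), and at 48 h 3 (13.8%) and 4 (10.6%). RFC5, a subunit of the clamp loader that places PCNA on DNA, was lower at every chilling time except LTH at 2 h (-0.80, adjusted p = 0.075), with 9.51, 16.3 and 20.5 in LTH at 48 h, against 87.0, 75.2 and 73.5 in the control (log2 fold change -2.41, SE 0.32, adjusted p = 3.8e-07). RFC3, another subunit, was lower at 24 and 48 h in both genotypes (-2.03 in LTH and -1.30 in IR29 at 48 h). RBR1, a retinoblastoma-related repressor of S-phase genes, CKS1, a CDK subunit, and FEN1A, a flap endonuclease of lagging strand synthesis, were each lower in LTH at 2, 24 and 48 h. SMR1, an inhibitor of cyclin-dependent kinases, rose at all 4 chilling times in both genotypes. SMR1 read 216, 186 and 275 in IR29 at 8 h, against 12.9, 21.0 and 6.80 in the control (log2 fold change 4.18, SE 0.54, adjusted p = 7e-07), and 223, 364 and 557 in LTH at 8 h, against 45.5, 34.7 and 22.1 (log2 fold change 3.45, SE 0.54, adjusted p = 1.2e-05). In recovery SMR1 was still higher in IR29 (2.3, adjusted p = 0.0013) and not called in LTH (0.46 ± 0.54, SE). No KRP gene was called higher in IR29, but 3 of the 4 KRP estimates in IR29 at 8 h were above 0. They ranged from -0.59 to 1.76, with a median of 0.89. KRP5 read 168, 107 and 180 in IR29 at 8 h, against 46.3, 78.3 and 23.2 in the control. Whether SMR1 and the KRP genes moved together was not tested. SDS, named for a meiotic cyclin of Arabidopsis, also rose at all 4 times in both, by 1.66 to 2.26 in LTH and by 2.05 to 3.15 in IR29. No gene of this list was called in LTH recovery, and in IR29 recovery CYCP2-1 and CYCP4-1 were lower and SMR1 was higher.

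Of the 54 genes, 9 were called in none of the 18 comparisons (CDC25.2, CDKA-1, CDKD-1, CDKE-1, KRP1, MCM7, MCM8, ORC3 and RPA1A). The same share over all probe sets was not worked out. The signal was dim for many members, with a mean intensity under 20 for 14 of them and of 100 or more for 19, and dim probe sets varied more between replicates. A second probe set was present for 13 genes. Of the 44 calls made at the brightest probe set of these genes, 24 were also made in the same direction at the next brightest one. There, 20 were not made and 0 were called in the opposite direction. The estimate of KRP4 in LTH recovery against 48 h changed sign, from -1.55, called lower, to 0.36, not called. The next brightest probe set gave 24 further calls where the brightest gave none, many of them at CDKE-1 and CYCD5-2.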

How the data were processed

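The authors scanned 36 Affymetrix Rice Genome arrays, extracted signals with GCOS and normalized them in dChip, and the deposited table gives the resulting linear intensity of each probe set on each array. Such values hold no background reading, so that the precision of dim signals was taken from the scatter of the 3 arrays per group, whose number limits it. Values under 1 were set to 1 and log2 was taken. Of the probe sets, 22436 carried 1 gene in the platform annotation, 95 several and 34727 none, and 70 probe sets fell to the 54 members. All 57258 probe sets were fitted with limma 3.58.1 in R 4.3.3 as 12 group means with eBayes and its trend option, and 18 comparisons were drawn from the fit. The fit was tested on simulated data made from the LTH control means and the spreads over all 12 groups. Changes were added to LTH at 2 h, only at probe sets bright in the LTH control. The fit called 37 of 67 probe sets changed by 1.2 in log2 units, 50 of 67 changed by 1.6, 61 of 66 changed by 2.3, and 7 of 57058 left alone. How often such changes would be called at dim probe sets was not tested.

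The members, the lists and the tests were chosen with earlier results of these data known. Array values are given for, in each role class, up to 5 members with the largest called changes without overlap of the arrays, the brightest member and up to 2 members not called, and for members called between the genotypes. Lack of overlap was thus a condition for naming the members with the largest changes and is no separate support for their calls. Other members are named as chosen after their values were seen. The other pathway genes (23 matched), meristem genes (14), leaf genes (3) and clock genes (7) were listed by symbol. The alternatives were quantile normalization, median centring, a higher floor, leaving out the dimmest 40% of probe sets, fitting only the groups compared, the replicate number as a block, the methods' t-test, no fold minimum, the next brightest probe set and leaving out replicates. The removal of single arrays was added after the data were seen. The motif search and the lists by gene description were not run, since neither sequences nor descriptions were used here.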

Additional observations from a re-analysis of the deposited data

Results flagged for a closer look

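Each of the following results was singled out because the response to chilling or recovery differed between the genotypes in the limma test of the difference itself (LTH minus IR29, in log2 units, adjusted over all probe sets), and no explanation was tested for any of them. Groups of 3 arrays are too small for a test of single outlying arrays. The ORC2 difference was -2.14 at 8 h, and at 24 and 48 h it was -2.28 and -2.28 (adjusted p = 0.0013, 0.00033 and 0.00018). ORC4 differed by -1.13 at 24 h and -1.32 at 48 h (adjusted p = 0.041 and 0.011), in neither genotype was its own change at those times called, and its next probe set, at -0.58 and -1.09, was not called. CYCB1-3 differed by 2.70 and 2.25 at 24 and 48 h, at signals under 50 throughout. CDC25.1 differed by 1.51 and 2.54 at 24 and 48 h (adjusted p = 8.1e-05 and 4.2e-08), and the arrays of LTH at those times did not overlap any other arrays. CYCD5-1 differed by -1.35 and -1.16 at 24 and 48 h (adjusted p = 0.025 and 0.047). KRP4 differed by 1.05 at 24 h and 1.13 in recovery, and at 48 h by 1.00, which rounded to the fold minimum but was not called. Its next probe set was not called in any of these. MCM9 differed by 1.46 in recovery (adjusted p = 0.0022). RPA2C differed by -1.94 at 48 h (adjusted p = 0.035), where LTH arrays read 6.10, 5.22 and 18.1, against 18.6, 14.9 and 15.4 in the LTH control, and IR29 arrays 13.4, 13.0 and 18.1, against 7.51, 9.39 and 5.88 in the IR29 control.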

How the results depend on the processing

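For the largest changes of the members named by the rule, and for the calls between genotypes, no alternative changed the sign. Other calls were not all checked. The KRP4 call in LTH recovery against 48 h (-1.55) stood at 0.36, uncalled, at its next probe set. The uncalled CYCD5-2 estimates in LTH at 2, 8 and 24 h were -1.67, -1.29 and -1.51 and called lower at the next probe set, against 0.32, 0.66 and 0.46 at the brightest. The counts of members called moved by over 1.5 times in these cases, and the cause was not tested. With only the groups compared in the fit, the counts were 23 in LTH at 48 h, 12 in LTH recovery, 19 in IR29 at 8 h, 10 between the controls, 1 in the genotype difference at 2 h and 5 in recovery. The methods' t-test gave 9 in LTH at 24 h, 16 in LTH recovery, 9 between the controls, and 7, 5 and 7 in the genotype differences at 2 h, 8 h and in recovery. After Benjamini-Hochberg adjustment it gave 8 in LTH at 24 h, 0 in LTH recovery, 7, 6 and 8 in IR29 at 8 h, 48 h and in recovery, 17 for IR29 recovery against 48 h, 3 in the genotype difference at 24 h and 5 in recovery. Without a fold minimum the counts were 12 in LTH at 8 h, 19, 14 and 19 in IR29 at 2, 24 and 48 h, 5 between the controls and 3 in the genotype difference at 8 h. In the genotype difference at 2 h, quantile normalization, the higher floor, leaving out the dimmest probe sets and the next brightest probe set each gave 1.

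With 1 replicate number left out of every group, or 1 array left out, the counts ranged in LTH from 8 to 25 at 2 h, 6 to 10 at 8 h, 8 to 29 at 24 h, 9 to 18 at 48 h and 1 to 13 in recovery. In IR29 they ranged from 9 to 16 at 2 h, 7 to 26 at 8 h, 6 to 12 at 24 h, 6 to 22 at 48 h and 6 to 21 in recovery, for recovery against 48 h from 12 to 24 in LTH and 18 to 34 in IR29, between the controls from 1 to 10, and for the genotype differences from 0 to 1, 0 to 4, 1 to 20, 1 to 10 and 0 to 4 in the same order of times. Over 198 pairs of same-numbered arrays from any 2 groups, the correlation of deviations had a median of 0.001 (-0.763 to 0.648), against 0.01 for different numbers. Of 36 arrays, 16 correlated best with their own number. Whether LTH and IR29 arrays of the same treatment and number were paired, as shared plates would make them, was not tested apart from the other pairs. With the replicate block the counts were 24 in LTH at 2 h, 16 at 24 h and 17 in IR29 recovery, and no count moved by over 1.5 times. Dim members, 14 of them under a mean intensity of 20, limit what small changes could show.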
